A study of Danio rerio with 12 samples.

Results

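Neutrophil and macrophage marker genes were followed in whole zebrafish treated for 48 h. The labels give 4 groups: Control, the combustion product benzo[a]pyrene (BaP), the painkiller and cyclooxygenase inhibitor diclofenac, and Mixture, taken here as both compounds together. The set was defined by symbol and held 10 genes: mpx, lyz, mpeg1.1, mfap4, csf1ra, lcp1, coro1a, ptprc, spi1b and cxcr4b. They accounted for 17 of the 35497 entries of the authors' deposited table, where an entry is 1 transcript class of 1 gene identifier. Of those 17 entries, 11 averaged at least 1 CPM (counts scaled to library size) over the whole fit and were tested, so that each of the 10 genes had at least 1 tested entry. Polyadenylated RNA of the whole body was sequenced in 3 replicates of each group, 12 libraries in all, and the labels do not say whether a replicate was 1 fish or a pool. The sources used here do not give the dose, age or strain. The deposited table compares each treatment with the same Control libraries and holds the replicates already combined, so no value per library, mean or SD is given and the depth per library is unknown from it. Each change below is therefore a log2 fold change with a standard error (SE) or a 95% interval that was worked out from the deposited fold change and its likelihood ratio.

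Neutrophils and macrophages are the phagocytes of the innate immune system, and in zebrafish larvae they are the main leukocytes before lymphocytes mature. Neutrophils carry granules of antimicrobial enzymes and are released from blood-forming tissue after injury, whereas macrophages settle in most tissues, engulf dead cells and microbes, and depend on signalling through the Csf1 receptor. In RNA from whole animals, more cells of a type and more RNA per cell cannot be told apart.

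All 3 macrophage markers, 2 of the 3 general leukocyte markers and spi1b rose with diclofenac. The other markers, among them both neutrophil granule genes, did not pass the test, and no difference between these classes was tested. Of the 10 genes, 6 rose and 0 fell against Control, where 8.52% of all 21622 entries tested were called higher and 7.64% lower (Benjamini-Hochberg adjusted p under 0.05, likelihood ratio test of the authors). The 10 genes were chosen with earlier results of these data known, so the shares beside the counts are no independent test of them. At an unadjusted p under 0.05 there were 9 of the 10, where 27.6% of entries reached it, lyz being the exception. The median log2 fold change of the 10 was 0.73, and that of all entries tested was -0.01. With the mixture 2 of the 10 rose and 0 fell, where 8.12% of entries were called higher and 6.67% lower, and the median was 0.57 against 0.02 for all entries. At an unadjusted p under 0.05 there were 5 of the 10 with the mixture, where 26.8% of entries reached it. With BaP 0 of the 10 passed the authors' test, where 0.148% of entries were called in either direction, and 1 of them (mpx) had an unadjusted p under 0.05, as had 3.98% of entries. The median with BaP was 0.08, against 0.02 for all entries.

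**Figure D1:**
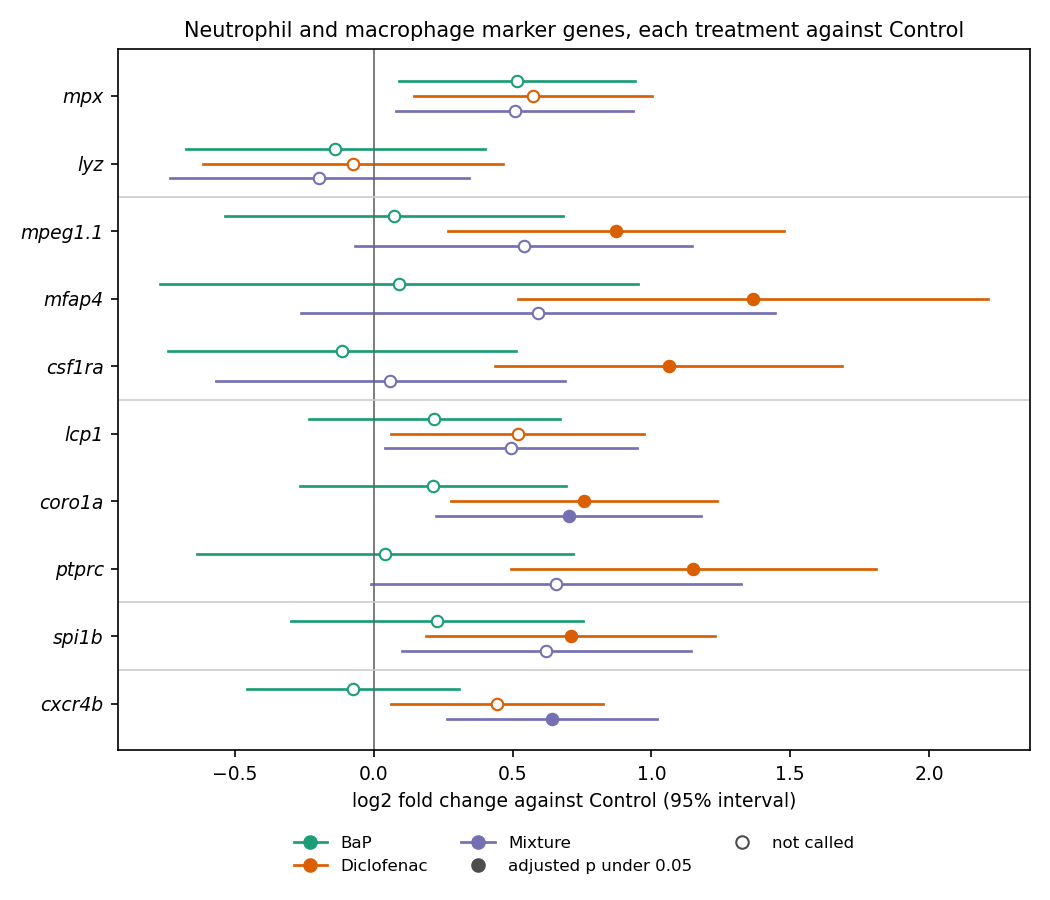
Log2 fold change of each marker gene against Control with BaP, diclofenac and the mixture, with 95% intervals implied by the authors' likelihood ratio. Filled points passed an adjusted p of 0.05. The 3 macrophage markers are filled with diclofenac alone, and lyz lies near 0 in all 3 treatments.

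Among the neutrophil granule genes, mpx (ENSDARG00000019521) encodes the myeloid peroxidase and is a standard neutrophil marker in zebrafish. In the authors' deposited table mpx had log2 fold changes of 0.52 with BaP, 0.57 with diclofenac and 0.51 with the mixture. None passed the likelihood ratio test after Benjamini-Hochberg adjustment (adjusted p = 1, 0.0517 and 0.0984). The diclofenac value lay at the threshold, and it passed with a minimum of 5 CPM (adjusted p = 0.0445), with 1 entry per symbol (0.0499) and with fold changes centred on their median (0.0488). It did not pass with entries under 1 CPM kept (adjusted p = 0.0755), with protein-coding entries alone (0.0506) or with Benjamini-Yekutieli adjustment (0.546). The other granule gene, lyz (ENSDARG00000057789), encodes lysozyme C, which breaks bacterial cell walls and also occurs in some macrophages. Its log2 fold changes in the authors' deposited table were -0.14 with BaP, -0.07 with diclofenac and -0.20 with the mixture, and none passed (adjusted p = 1, 0.907 and 0.721). The 95% interval for lyz with diclofenac ran from 0.654-fold to 1.38-fold. It overlapped that of csf1ra, 1.35-fold to 3.22-fold, and held the 1.36-fold value of cxcr4b. Changes of mpx and lyz thus had opposite signs in each treatment, and whether they differ from each other was not tested, because the table holds no covariance between genes.

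The macrophage markers all rose with diclofenac. The perforin-like gene mpeg1.1 (ENSDARG00000055290), whose promoter is widely used to label macrophages in zebrafish, rose by 0.87 ± 0.31 (log2, SE) in the authors' deposited table, or 1.83-fold, with a log2 interval of 0.27 to 1.48 (adjusted p = 0.0330). The microfibril-associated gene mfap4 (ENSDARG00000090783), also used as a macrophage label in zebrafish, rose by 1.37 ± 0.43 per the authors' deposited table (adjusted p = 0.0145). It had the highest log2 fold change of the 10 with diclofenac, and 2.68% of all entries tested were higher. The gene csf1ra (ENSDARG00000102986) encodes a receptor for Csf1 and Il34 that macrophages use and that yellow pigment cells (xanthophores) also use. It rose by 1.06 ± 0.32 in the authors' deposited table, or 2.09-fold with an interval of 1.35 to 3.22 (adjusted p = 0.00885).

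With the mixture none of the 3 macrophage markers passed. In the authors' deposited table the log2 fold changes were 0.54 for mpeg1.1, 0.59 for mfap4 and 0.06 for csf1ra (adjusted p = 0.256, 0.411 and 0.939). Thus mpeg1.1 and mfap4 were above 0 in both treatments with diclofenac, and the csf1ra value with the mixture was close to that with BaP, -0.11. With BaP mpeg1.1 and mfap4 stood at 0.07 and 0.09 per the authors' deposited table (adjusted p = 1 for each).

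The macrophage values have a limit in how reads were divided among copies. A second identifier with the symbol mpeg1.1 averaged 1.71 CPM, against 6.34 CPM for the first, and had a log2 fold change of -0.89 ± 1.03 with diclofenac per the authors' deposited table (adjusted p = 0.629). With group levels approximated from the averages and both identifiers summed, a step added after seeing the data and carrying no test, the change of mpeg1.1 was 0.52 with diclofenac and 0.26 with the mixture. For mfap4 RefSeq's gene table for GRCz12tu, read for gene names alone, lists 13 genes named as mfap4 copies on 1 chromosome. The copy that was tested besides mfap4, si:ch1073-110a20.7 in the authors' deposited table, was looked up after the values were seen and had a log2 fold change of 0.89 ± 0.46 with diclofenac (adjusted p = 0.194).

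Of the markers shared by most leukocytes, ptprc and coro1a rose with diclofenac. The gene ptprc (ENSDARG00000071437) encodes the CD45 phosphatase on the surface of leukocytes, and it rose by 1.15 ± 0.34 in the authors' deposited table, or 2.22-fold with an interval of 1.41 to 3.51 (adjusted p = 0.00678). With the mixture ptprc had a log2 fold change of 0.66 ± 0.34 per the authors' deposited table and missed the threshold (adjusted p = 0.194). The actin-binding coronin gene coro1a (ENSDARG00000054610) was the only marker called in both treatments with diclofenac. In the authors' deposited table it rose by 0.76 ± 0.24 with diclofenac and by 0.70 ± 0.24 with the mixture (adjusted p = 0.0171 and 0.0316). The gene lcp1 (ENSDARG00000023188) encodes L-plastin, which bundles actin in leukocytes. Its log2 fold changes in the authors' deposited table were 0.52 with diclofenac and 0.50 with the mixture, and neither passed (adjusted p = 0.114 and 0.139). With BaP coro1a, lcp1 and ptprc had log2 fold changes of 0.21, 0.22 and 0.04 per the authors' deposited table (adjusted p = 1 for each).

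The myeloid transcription factor gene spi1b (ENSDARG00000000767) encodes PU.1, which directs blood progenitors to the myeloid fate. It rose by 0.71 ± 0.27 with diclofenac per the authors' deposited table (adjusted p = 0.0472), a call that was lost when entries under 1 CPM were kept (adjusted p = 0.0692). The mixture gave spi1b a log2 fold change of 0.62 ± 0.27 in the authors' deposited table, which did not pass (adjusted p = 0.0979), and BaP gave 0.23 (adjusted p = 1). The diclofenac and mixture values of spi1b were thus within 1 SE of each other.

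The chemokine receptor gene cxcr4b (ENSDARG00000041959) encodes a receptor for Cxcl12 that holds neutrophils in blood-forming tissue. It is also expressed outside leukocytes, for example in the migrating lateral line primordium. It was the marker that rose with the mixture without being called with diclofenac alone. In the authors' deposited table cxcr4b rose by 0.64 ± 0.19 with the mixture, or 1.56-fold, with a log2 interval of 0.26 to 1.02 (adjusted p = 0.0100). With diclofenac the value was 0.44 ± 0.19 per the authors' deposited table (adjusted p = 0.105), and with BaP it was -0.07 (adjusted p = 1). The difference between the mixture and diclofenac in cxcr4b was 0.20, with an interval of -0.18 to 0.58, and did not pass (adjusted p = 0.895, approximate Wald test).

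The calls against Control depended on the adjustment. With Benjamini-Yekutieli adjustment, which allows for any dependence among entries, 0 of the 10 were called with diclofenac and 0 with the mixture. The lowest adjusted p was that of ptprc with diclofenac, 0.0716. The share of all entries called under this adjustment was not worked out.

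The treatments were then compared with each other, so that the shared Control cancels. These tests are approximate Wald tests on the implied variances and assume equal spread in the groups. The doses within the mixture are not given, so no contrast with it is known to be at matched doses. Diclofenac gave higher values than BaP in 4 of the 10 markers and lower values in 0, where 9.51% of all entries were called higher and 9.63% lower. The receptor csf1ra differed by 1.18 ± 0.32 (log2, SE; adjusted p = 0.00274), mfap4 by 1.28 ± 0.44 (adjusted p = 0.0244) and ptprc by 1.11 ± 0.34 (adjusted p = 0.0107). The difference in cxcr4b was 0.52 ± 0.20 (adjusted p = 0.0439, and 0.0662 with entries under 1 CPM kept). For mpeg1.1 it was 0.80 ± 0.31 and narrowly missed the threshold (adjusted p = 0.0524). With Benjamini-Yekutieli adjustment, for which no share of all entries was worked out, 1 of the 10 was called, csf1ra. In mpx the difference was 0.06, with an interval of -0.37 to 0.49 (adjusted p = 0.895). In lyz it was 0.06, with an interval of -0.48 to 0.60 (adjusted p = 0.911).

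**Figure D2:**
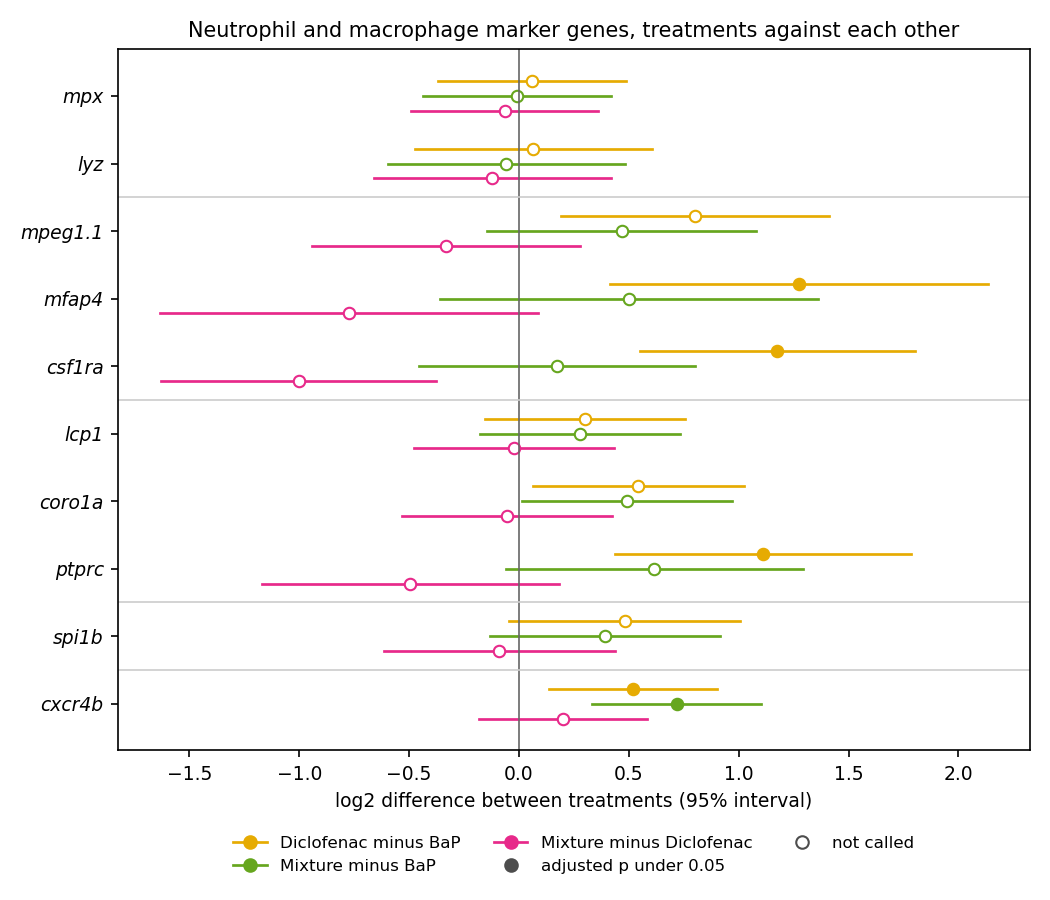
Log2 difference between treatments for each marker gene, with 95% intervals from the implied variances. Filled points passed an adjusted p of 0.05. Diclofenac exceeded BaP in csf1ra, mfap4, ptprc and cxcr4b, the mixture exceeded BaP in cxcr4b, and no difference between the mixture and diclofenac is filled.

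The mixture exceeded BaP in 1 of the 10 markers, and was lower in 0, where 8.33% of all entries were called higher and 8.12% lower. That marker was cxcr4b, with a difference of 0.72 ± 0.20 (approximate Wald test, adjusted p = 0.00322). In coro1a the difference was 0.49 ± 0.24 (adjusted p = 0.168) and in ptprc 0.62 ± 0.34 (adjusted p = 0.232), and neither passed.

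Between the mixture and diclofenac alone 0 of the 10 markers differed by the approximate Wald test, where 0.365% of all entries were called, and 1 had an unadjusted p under 0.05, as had 7.35% of entries. That 1 was csf1ra, at 0.499 of its diclofenac level with the mixture (log2 interval -1.63 to -0.38, unadjusted p = 0.00173, adjusted p = 0.193). The differences in the other macrophage markers were -0.77 for mfap4, with an interval of -1.64 to 0.09, and -0.33 for mpeg1.1, with an interval of -0.94 to 0.28 (adjusted p = 0.747 and 0.891). For ptprc the difference was -0.49, with an interval of -1.17 to 0.18 (adjusted p = 0.827). In coro1a, lcp1, spi1b, mpx and lyz the difference lay between -0.12 and -0.02. The mixture was thus below diclofenac in 9 of the 10 markers and above it in cxcr4b, all without an adjusted call. Over all entries the median of this difference was 0.02, with quartiles of -0.17 and 0.20. The markers were read in the same libraries, so their signs are not independent. The interaction (the change with the mixture less the sum of the changes with BaP and with diclofenac) was called in 0 of the 10 markers by the approximate Wald test, where 0.0462% of all entries were called. At an unadjusted p under 0.05, which 4.53% of entries reached, the interaction held 1 marker, csf1ra, at -0.89 ± 0.45 (unadjusted p = 0.0494, adjusted p = 0.999). The narrowest interval of an interaction among the 10 was that of cxcr4b, from -0.27 to 0.82.

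The ligands, paralogs and partner receptors of the markers were read from the same table. The paralog mpeg1.2, a second perforin-like gene, rose by 2.19 ± 0.28 with diclofenac and by 1.71 ± 0.28 with the mixture per the authors' deposited table (adjusted p = 2.94e-13 for the first and 6.11e-08 for the second). The matching changes of mpeg1.1 were 0.87 and 0.54, and the difference between the genes was not tested. The second Csf1 receptor gene, csf1rb, averaged 1.26 CPM and had log2 fold changes of 0.34 with diclofenac and 0.04 with the mixture in the authors' deposited table, neither of which passed (adjusted p = 0.749 and 0.975). The spi1 paralog spi1a stood at 0.59 with diclofenac and 0.35 with the mixture per the authors' deposited table (adjusted p = 0.166 for the first and 0.495 for the second).

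The ligands of the Csf1 receptors did not share a direction. With diclofenac csf1b fell by 0.82 (log2) per the authors' deposited table (adjusted p = 0.0208), and with the mixture it had a log2 fold change of -0.18 (adjusted p = 0.727). The other ligand genes csf1a and il34 stood at 0.54 and 0.71 with diclofenac in the authors' deposited table and missed the threshold (adjusted p = 0.0644 and 0.121). With the mixture csf1a rose by 0.60 per the authors' deposited table (adjusted p = 0.0342), and il34 stood at 0.68 (adjusted p = 0.150).

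Among the partners of cxcr4b, the paralog cxcr4a rose by 0.95 ± 0.28 with diclofenac and by 1.36 ± 0.28 with the mixture per the authors' deposited table (adjusted p = 0.00715 for the first and 3.36e-05 for the second). The ligand gene cxcl12a rose by 1.02 ± 0.19 with diclofenac (adjusted p = 2.23e-06) and stood at 0.40 with the mixture (adjusted p = 0.142) in the authors' deposited table. The second ligand gene cxcl12b and the scavenger receptor gene ackr3b, which removes Cxcl12, did not pass. Their log2 fold changes in the authors' deposited table were 0.35 and 0.21 with diclofenac, and -0.01 and 0.18 with the mixture. With BaP none of the 10 partner genes named here passed the authors' likelihood ratio test, and their log2 fold changes in the authors' deposited table lay between -0.32 (ackr3b) and 0.32 (csf1b).

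**Figure D3:**
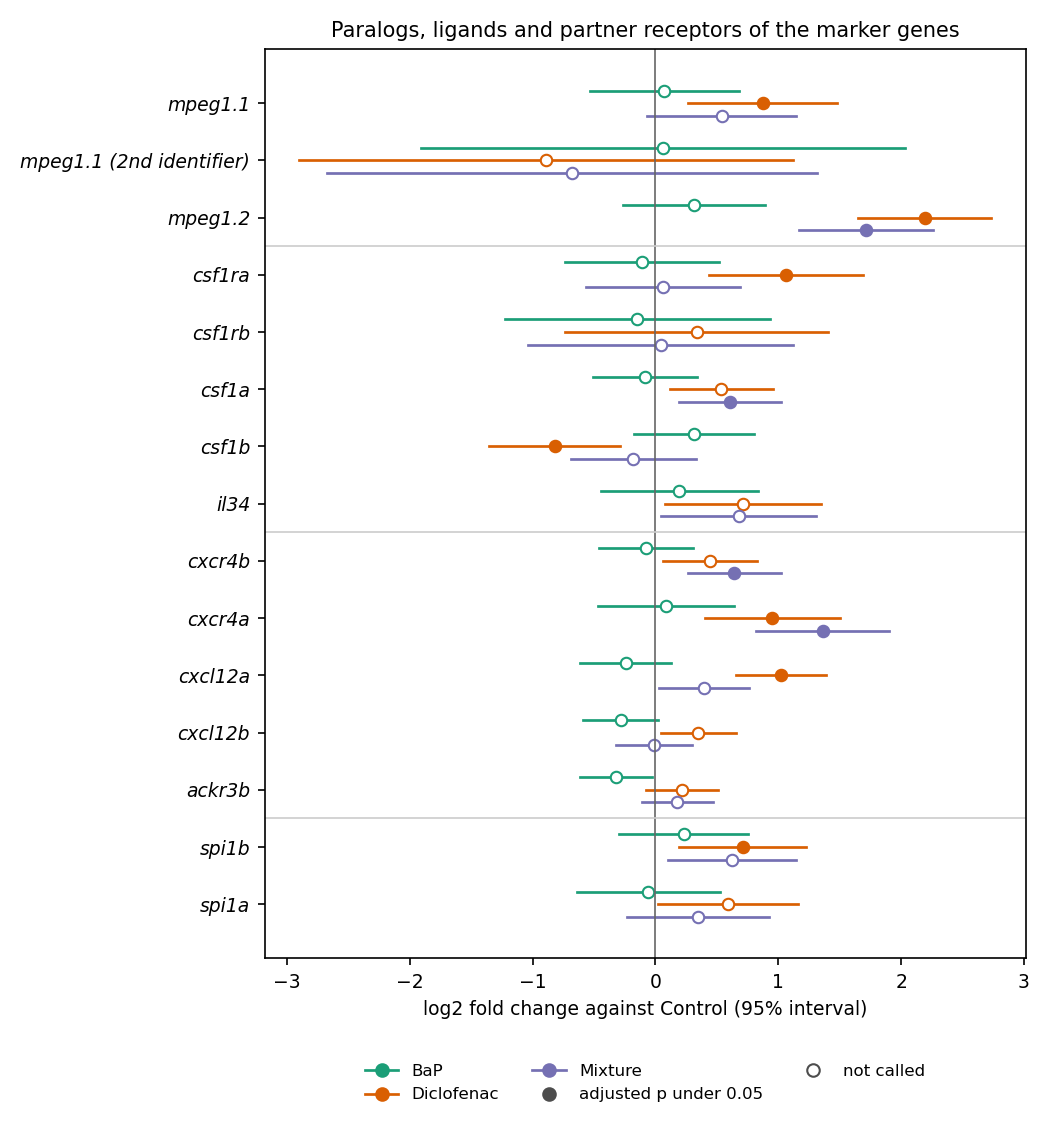
Log2 fold change against Control with 95% intervals for the paralogs, ligands and partner receptors of mpeg1.1, csf1ra, cxcr4b and spi1b, with the markers beside them. Filled points passed an adjusted p of 0.05. The interval of the second mpeg1.1 identifier is the widest, mpeg1.2 and cxcr4a are filled with diclofenac and with the mixture, and csf1b lies below 0 with diclofenac.

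Further lists placed the 10 markers beside other neutrophil and macrophage genes, oxidase and phagosome genes, transcription factors, and growth factors and chemokines. Not all of the listed genes are particular to leukocytes. Counts in these lists stand against 8.52% of all entries called higher and 7.64% lower with diclofenac. For the mixture those shares were 8.12% higher and 6.67% lower. A single call in a list this short lies near such a share, and no count was tested against it. Of 18 other neutrophil genes 15 were tested, and 5 rose and 1 fell with diclofenac (median log2 fold change 0.29, with padi2 the lower gene), whereas 4 rose and 0 fell with the mixture (median 0.25). The matrix metalloprotease genes mmp9 and mmp13a, which other cells also express, rose by 3.93 and 3.69 with diclofenac in the authors' deposited table. With the mixture they rose by 3.55 and by 2.72 per the authors' deposited table. The gene srgn rose by 0.67 with diclofenac per the authors' deposited table and stood at 0.62 with the mixture, which did not pass. Most of the other genes of the list did not pass. With diclofenac lect2l, cxcr1, vamp8, fcer1gl and pnp5a had log2 fold changes of 0.02, -0.03, -0.04, -0.10 and -0.51 per the authors' deposited table. Also uncalled with diclofenac were csf3r, cebp1 and abcb9, at 0.31, 0.29 and 0.10 per the authors' deposited table. In the authors' deposited table nccrp1 rose by 0.78 with diclofenac and by 0.74 with the mixture (adjusted p = 0.0324 and 0.0498), and the protease gene npsn stood at 0.49 with diclofenac (adjusted p = 0.123) and rose by 0.63 with the mixture (adjusted p = 0.0356). A leukotriene synthesis gene, alox5a, was among the 5 through an identifier that averaged 1.64 CPM and rose by 1.65 with diclofenac per the authors' deposited table (adjusted p = 0.00593). A second alox5a identifier, at 1.38 CPM, had a log2 fold change of -1.10 there (adjusted p = 0.134).

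Of 26 other macrophage genes 13 were tested, and 4 rose and 1 fell with diclofenac (median 0.54), whereas 6 rose and 1 fell with the mixture (median 0.44). The lysosomal protease gene ctss2.1 (cathepsin S) rose by 1.85 with diclofenac and by 2.83 with the mixture per the authors' deposited table (adjusted p = 3.45e-06 for the first and 1.61e-13 for the second). The tartrate-resistant acid phosphatase gene acp5a, known from osteoclasts, rose by 1.55 and 2.84 in the same order in the authors' deposited table. The amino acid transporter gene slc7a7 rose by 0.79 and by 0.77 per the authors' deposited table. Called with the mixture but not with diclofenac were apoeb, which averaged 1246 CPM, and ctsk, at 39.2 CPM. In the authors' deposited table they rose by 1.13 and 0.54 with the mixture and stood at 0.63 and 0.26 with diclofenac. The gene that fell in both treatments was lgals3bpb, with log2 fold changes of -2.44 and -2.61 per the authors' deposited table. Besides csf1rb, the genes called in neither treatment were mrc1b, marco, irf8, mrc1a and ctss2.2. Their log2 fold changes in the authors' deposited table were 0.99, 0.54, 0.48, 0.40 and -0.26 with diclofenac. With the mixture they were 0.44, -0.93, -0.14, 0.18 and 0.32 in the same order. The invariant chain genes cd74a and cd74b and the complement genes c1qa, c1qb and c1qc, all of this list, averaged under 1 CPM and were not tested. Nearest below that limit in the list were ccl34b.1 (0.989 CPM) and p2ry12 (0.865 CPM). In the authors' deposited table ccl34b.1 had log2 fold changes of -1.73 with BaP, -1.64 with diclofenac and -2.92 with the mixture. Its unadjusted p in the authors' likelihood ratio test was 0.0033, 0.0058 and 1.14e-05 in that order. For p2ry12 the log2 fold changes were -1.05, 0.95 and 0.76 in the same order (unadjusted p = 0.0826, 0.0694 and 0.145). Neither gene entered the adjustment.

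The 13 tested genes of the NADPH oxidase and phagosome list had a median log2 fold change of 0.19 with diclofenac and of 0.19 with the mixture. With the mixture 0 of the 13 passed the authors' likelihood ratio test, and 2 had an unadjusted p under 0.05, against 26.8% of all entries. Of 15 myeloid and blood transcription factors, 2 rose and 1 fell with diclofenac (median 0.29), and 2 rose and 0 fell with the mixture (median 0.10). The bZIP factor gene cebpb, which acts in myeloid cells and in liver and inflammation, rose by 2.39 with diclofenac and by 2.80 with the mixture per the authors' deposited table (adjusted p = 6.94e-16 for the first and 5.12e-21 for the second). The other gene that rose in both treatments was gfi1b (1.52 CPM), by 1.87 and 1.95 there. The gene that fell with diclofenac was runx3, at -0.46. The uncalled genes of this list lay between -0.19 (tal1) and 0.59 (spi1a) with diclofenac. With the mixture they lay between -0.39 (tal1) and 0.36 (ikzf1). Of 12 tested growth factor and chemokine genes, 5 rose and 1 fell with diclofenac (median 0.63), and 4 rose and 0 fell with the mixture (median 0.42). The inflammatory chemokine gene cxcl18b rose by 2.65 and 2.72 and the cytokine gene il1b by 1.05 and 1.33 in the authors' deposited table, with diclofenac and with the mixture. With BaP 0 of the 66 distinct genes in these 5 lists were called by the authors' likelihood ratio test. Of the 66, 6 had an unadjusted p under 0.05, against 3.98% of all entries, and this count was not tested. They went both ways in the authors' deposited table. Above 0 were alox5a (0.97) and ctss2.1 (0.93), and below 0 were cxcl8a (-0.96), myb (-0.39), ackr3b (-0.32) and cebpa (-0.30).

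Markers of other cells moved with some of the same comparisons, and their part in the marker results was not tested. Counts in these lists also stand against 8.52% of all entries called higher and 7.64% lower with diclofenac. With the mixture the shares were 8.12% higher and 6.67% lower. A single call in a short list can reach or exceed such a share, and no count was tested against it. Of 12 endothelial genes 5 rose with diclofenac and 2 with the mixture, and 0 fell (medians 0.47 and 0.43). The scavenger receptor gene stab2 rose by 1.17 and by 1.37 per the authors' deposited table, with diclofenac and the mixture. Of 13 tested erythrocyte genes 6 rose with diclofenac and 8 with the mixture (medians 0.58 and 0.65), and with BaP 0 were called by the likelihood ratio test, 7 with an unadjusted p under 0.05 against 3.98% of all entries, at a median of 0.44. Of 7 tested thrombocyte genes 2 rose in each of the treatments with diclofenac (medians 0.66 and 0.47), thbs1b and f5, which other tissues also express.

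Xanthophore markers, relevant to csf1ra, showed 1 of 7 higher and 2 lower with diclofenac (median -0.05), and 0 higher and 1 lower with the mixture. The 2 lower genes were xdh and bco1, at -0.71 and -0.61 with diclofenac in the authors' deposited table. The higher gene was scarb1, which rose by 0.79 with diclofenac and stood at 0.53 with the mixture there, the latter uncalled. Uncalled with diclofenac were pax7b, gch2, pax7a and aox5, at 0.25, 0.13, -0.05 and -0.33 per the authors' deposited table. The list of tissues that also use cxcr4b had 1 of 8 higher with diclofenac and 2 with the mixture, and 0 lower (medians -0.10 and 0.20). In the authors' deposited table atoh1a rose by 1.14 with diclofenac and by 1.51 with the mixture. There cldnb stood at 0.68 with diclofenac, uncalled, and rose by 0.97 with the mixture. Uncalled in both treatments were foxi1, fgf10a, six1b, lef1, prox1a and eya1. Their values there were 0.38, -0.07, -0.14, -0.28, -0.34 and -0.36 with diclofenac. With the mixture they were 0.53, 0.38, 0.02, -0.22, -0.52 and -0.25. Of 10 epidermis genes 4 rose and 2 fell with diclofenac, and 2 rose and 2 fell with the mixture (medians 0.33 and -0.02). Of 18 lymphocyte genes only 4 averaged at least 1 CPM, namely tox (180 CPM), gata3 (91.9 CPM), pax5 (2.69 CPM) and rag2 (1.34 CPM). Of these 4, 1 was called, tox, which fell with diclofenac by 0.38 (log2) per the authors' deposited table (adjusted p = 0.0361). Uncalled, gata3, pax5 and rag2 had log2 fold changes of -0.03, -0.30 and -1.18 with diclofenac in the authors' deposited table. Among the lymphocyte genes under 1 CPM, rag1, cd8b, themis and il7r averaged 0.936, 0.877, 0.839 and 0.611 CPM. Lower were lck, cd4-1, cd8a and cd79a, which averaged between 0.156 and 0.269 CPM. Whether the tox RNA came from lymphocytes was not tested, nor was the part of lymphocytes in the ptprc and coro1a results.

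**Figure D4:**
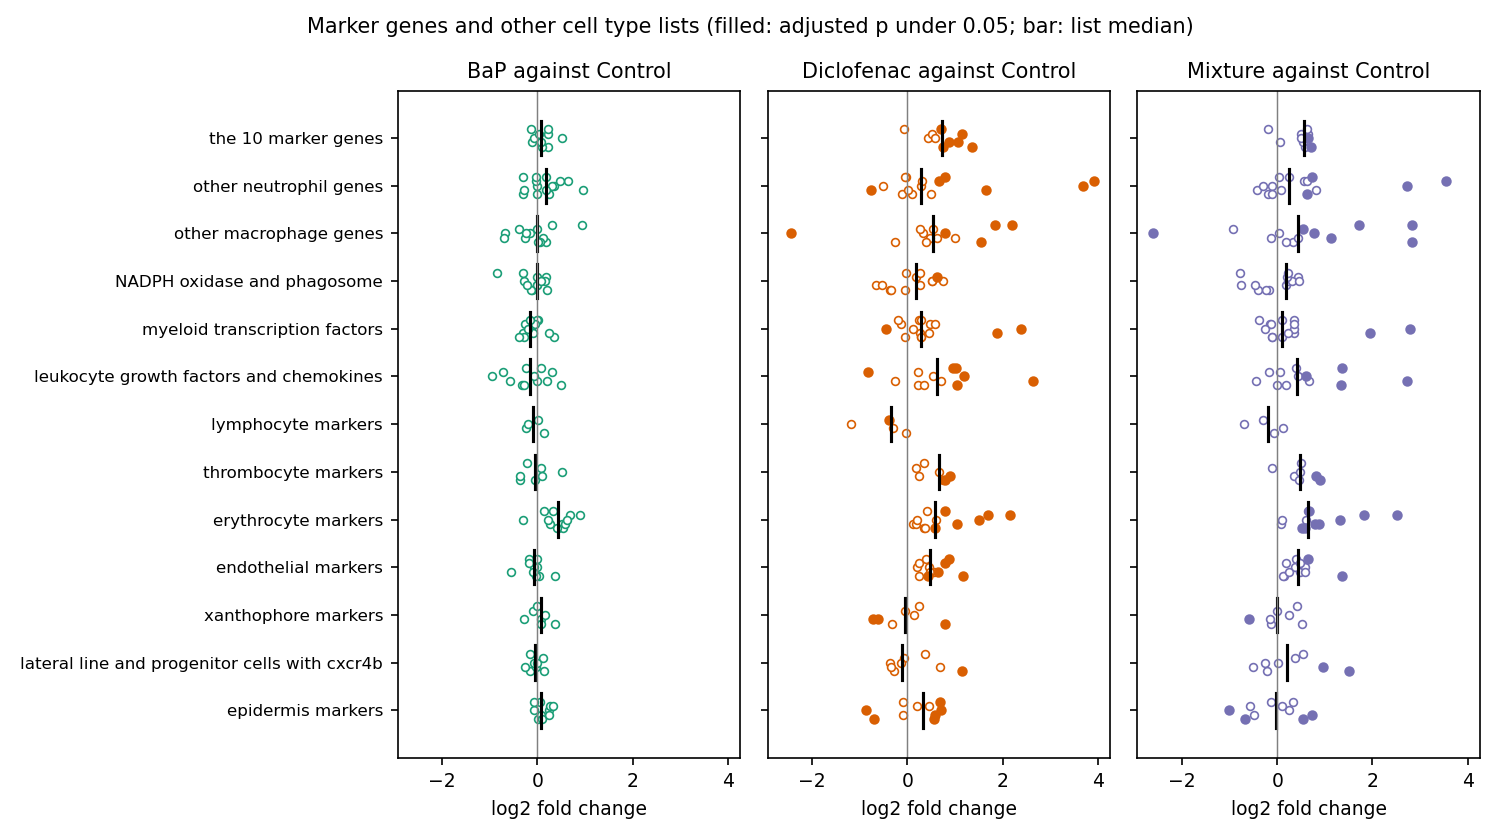
Log2 fold change against Control of every tested gene in the marker set and in 12 other lists, with 1 panel per treatment. Each point is a gene, filled where its adjusted p was under 0.05, and black bars are list medians. Medians of the 10 markers are 0.73 with diclofenac, 0.57 with the mixture and 0.08 with BaP.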

How the data were processed

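Polyadenylated RNA from whole zebrafish was sequenced as 150 bp paired reads, per the labels' protocols. Per the submitters' processing notes the tools were kallisto, limma and edgeR and the genome build was GRCz11, with no versions or roles given. The deposited log2 fold changes, average log2 CPM, likelihood ratio (a score with no fixed range) and p-value come from the authors, per the file headers. No log base is stated, and base 2 was used since the averages, raised as powers of 2, summed to 1.01e+06. The 3 columns of the average were identical in all 35497 entries. A chi-square distribution on 1 degree of freedom turned each likelihood ratio into the deposited p-value, which is thus unadjusted. P-values measure only the spread between the 3 libraries of a group as the authors modelled it, which may be technical.

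Benjamini-Hochberg adjustment of the deposited two-sided p-values covered the 21622 entries averaging at least 1 CPM. The implied variance was the squared fold change over the likelihood ratio. Differences between treatments used the largest of an entry's 3 implied variances in a Wald test, with double that variance for the interaction; for the 10 markers the largest and smallest differed by at most 1.05 times. The functions were tested on simulated data. A gene with several entries was represented by its most abundant one. The planned count models, leaving out replicates and a replicate block need values per library and were not run.

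The members and lists were chosen with earlier results of these data known. Of 177 list symbols beside the markers 170 were matched and 127 tested, and 12 lists are shown. Named genes were all markers, fixed partners and up to 4 called genes per list and comparison, of which examples are given. Exceptions, chosen after seeing values, are si:ch1073-110a20.7, list genes named because they were under 1 CPM, and the called genes padi2, srgn, apoeb and ctsk. Uncalled genes of the neutrophil, macrophage, transcription factor, lymphocyte and xanthophore lists are exceptions too. So are those of the list of tissues that also use cxcr4b. Sequences were not used here. The calls of 1 list with diclofenac are not reported here. Python 3.11.15, scipy 1.17.1, pandas 2.3.3, numpy 2.4.6 and matplotlib 3.10.9 were used.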

Additional observations from a re-analysis of the deposited data

How the results depend on the processing

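Counts of markers called stayed within 1.5 times of the reported ones with no abundance filter, a minimum of 5 CPM, protein-coding entries alone, 1 entry per symbol, median-centred fold changes and the median implied variance. With diclofenac against Control they ranged from 4 to 7 over those settings, which a minimum of 5 CPM lowers by leaving mfap4, ptprc and spi1b untested. Benjamini-Yekutieli adjustment left 0 with diclofenac, 0 with the mixture and 1 between diclofenac and BaP. A required change of at least 2-fold left 3 with diclofenac (csf1ra, mfap4 and ptprc), 0 with the mixture and 0 between the mixture and BaP. The log fold change limit of 1.5 in the authors' column descriptions, applied as log2, left 0 in each of these 3 and 0 between diclofenac and BaP. The shares of all entries called under these other settings were not worked out, so the counts cannot be set against them. No called marker reversed its direction, and the uncalled interaction of lyz changed sign with centring, from 0.0154 to -0.00382. Leaving out each replicate was not run, since the deposited table holds no values per library. No paired analysis was possible because the columns are comparisons that carry no replicate number. Intervals cover the authors' model of the spread alone.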

Other observations

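The marker entries averaging under 1 CPM numbered 6 and entered no comparison. A second coro1a identifier averaged 0.184 CPM, with log2 fold changes of 0 with BaP and with diclofenac and 4.61 with the mixture in the authors' deposited table (unadjusted p = 0.0387). Adding it to the first identifier gave coro1a a change of 0.75 with the mixture. The retained-intron entry of spi1b averaged 0.163 CPM and had a log2 fold change of 3.17 with the mixture in the authors' deposited table (unadjusted p = 0.0608). Fold changes at this level depend on the authors' prior count. Both further lyz identifiers and the retained-intron entries of mpx and csf1ra averaged between 0.144 and 0.241 CPM.

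The osteoclast and macrophage gene acp5a had 2 identifiers, and both moved alike. In the authors' deposited table they rose by 1.55 and 1.36 with diclofenac and by 2.84 and 2.71 with the mixture. The 2 identifiers of alox5a had opposite signs with diclofenac, and their sum, approximated as for mpeg1.1, was a change of 0.43.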
